A study of Mus musculus with 6 samples.

Results

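The genes described here are 44 transcription factors that assign regional identity in the developing brain. They were selected by gene name, in a list chosen with earlier results of these data known. All 44 names were found among the 53379 genes of the deposited table. The list spans the dorsal telencephalon (10 genes), the Otx factors (2), the ventral telencephalon (10), the TALE homeodomain cofactors of the Meis and Pbx families (3), the Iroquois family (4), the boundary of midbrain and hindbrain (4), the dorsal neural tube (6) and the ventral tube with floor and roof plate (5).

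In the embryo, signals from the edges of the neural tube divide it into forebrain, midbrain, hindbrain and spinal cord, and each territory is marked by its own combination of these factors. In the telencephalon, Emx, Pax6, Lhx2 and Dmrt factors mark the dorsal wall, or pallium, from which the cortex forms, while Dlx, Gsx and Nkx2-1 factors mark the ventral wall, or subpallium, the source of the striatum and of many interneurons. Iroquois factors are known from territories behind the telencephalon, Pax2, Pax5, Pax8 and Gbx2 from the border of midbrain and hindbrain, and Nkx6-1, Dbx and Lmx1 factors from steps along the ventral to dorsal axis.

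The libraries came from neural stem cells (NSCs), dividing progenitors that are able to form neurons as well as glia, grown as neurospheres with bFGF and EGF from the cortex of mouse embryos at E14.5. Every culture carried *Tbl1xr1* flox/flox alleles, in which LoxP sites flank exon V of a gene that encodes a subunit of the NCOR corepressor complexes. The 3 control libraries (replicates 1, 1_1 and 2) received a lentivirus with GFP alone, the 3 libraries labelled Cre (KO replicates 2, 2_2 and 3) received Cre-GFP, and GFP-positive cells were sorted in both groups. The comparison asks how the NSC transcriptome differs after Cre, and RNA was sequenced in bulk. The embryo behind each culture, the promoter of the virus, and any shared culture behind like replicate numbers (1 with 1_1, 2 with 2_2) are not given in the sources used here. The p-values therefore measure the spread between these libraries, which may be technical, and the origin of a culture and its virus cannot be told apart.

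Depth ran from 7510615 to 14828100 reads per library, and values are normalized counts, each the number of reads over the size factor of its library. *Tbl1xr1* itself had 2522, 2190 and 2721 normalized counts in control and 3774, 3463 and 2905 in the Cre-labelled libraries (log2 fold change 0.45, standard error [SE] 0.14, limma adjusted p = 0.060). Its mRNA was thus not lower after Cre, and a count over the whole gene does not measure the floxed exon. For this reason directions are given throughout for the Cre-labelled libraries. For such sorted cells the paper reports a check of the genotype by PCR. It also reports absence of *Tbl1xr1* mRNA by RT-qPCR and of the protein by Western blot. Whether those cells were the sequenced cultures is not given in the sources used here. Over the 14840 genes with a mean of at least 10 normalized counts, the first principal component held 48.7% of the variance and separated the groups. The summed normalized counts of neural stem cell markers covered overlapping ranges, 39620 to 43666 in control and 40499 to 42417 in the Cre-labelled libraries. Of these 10 markers 1 passed the test, *Nes*, with a log2 fold change of -0.85 (limma adjusted p = 0.00384). At an unadjusted p under 0.05 in limma, *Vim* was also lower (-0.34), while *Slc1a3* (0.29) and *Fabp7* (0.38) were higher. The sum thus combines markers that went opposite ways. No marker of another cell type passed in limma, and *Kdr* and *Foxc1* had lower values at an unadjusted p under 0.05. The summed counts of 8 neuronal markers (5 tested) were 9260 to 9472 in control and 10107 to 11339 after Cre, nearly all *Map2*. Those of 6 microglial markers (1 tested) were 162 to 205 and 166 to 273, nearly all *Csf1r*, and those of 5 endothelial markers (1 tested) were 26.7 to 40.4 and 14.3 to 19.4. Markers of meningeal fibroblasts (1 of 5 tested) summed to 285 to 329 and 192 to 309, nearly all *Foxc1*, and those of choroid plexus (0 of 4 tested) to 0.918 to 8.78 and 6.23 to 11.2. Among these lists *Stmn2*, *Tmem119*, *C1qa*, *Cldn5*, *Cdh5*, *Col1a2* and *Ttr* had 0 reads in every library, while others were detected. *Tubb3* had 29 to 122 reads in a library, *Dcx* had 10, 5 and 9 reads in control and 6, 2 and 4 after Cre, and *Col1a1* had 0 in control and 0, 9 and 7 after Cre. The part of these markers in the results below was not tested.

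Of the 44 factors, 20 averaged at least 10 normalized counts over the 6 libraries and were tested with limma on log2(normalized count + 1), with Benjamini-Hochberg adjustment over all genes tested, while 24 were too low. Among the 24, 8 had no read in any library, namely *Dmrt3*, *Irx2*, *Pax2*, *Pax3*, *Nkx6-1*, *Dbx1*, *Lmx1a* and *Lmx1b*. A further 10 had at most 3 reads in each library, and the remaining 6 (*Lhx9*, *Dlx2*, *Dlx6*, *Sp8*, *Irx1* and *Pax8*) reached at most 11.9 normalized counts in any library. The value of 3 reads lay between 2.08 and 4.39 normalized counts, depending on depth, so differences under that size were not detectable. Of the 20 tested factors, *Dmrta2*, *Dmrta1*, *Irx3* and *Irx5* rose in the Cre-labelled libraries, *Dlx1* fell, and 15 did not pass an adjusted p of 0.05. These 5 are 25% of the tested factors, beside 9.96% called among all 14840 genes tested (4.74% higher and 5.22% lower). Among them, *Dmrta1* (mean 3.99 in control) and *Dlx1* (mean 7.32 after Cre) reached the minimum of 10 only through the group where each was high. For such genes the filter itself favours a difference, so the share is a description and not a test. The values of the groups did not overlap for 12 of the 20 factors, 9 higher and 3 lower, beside 30.3% of all genes tested. At an unadjusted p under 0.05, 8 were higher and 3 lower, beside 25.5% of all genes tested. Each of these shares describes a list chosen with earlier results of these data known. The median log2 fold change of the 20 was 0.08, and over all genes tested it was -0.0010. In bulk RNA, fewer cells of a type and less RNA per cell cannot be told apart.

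**Figure D1:**
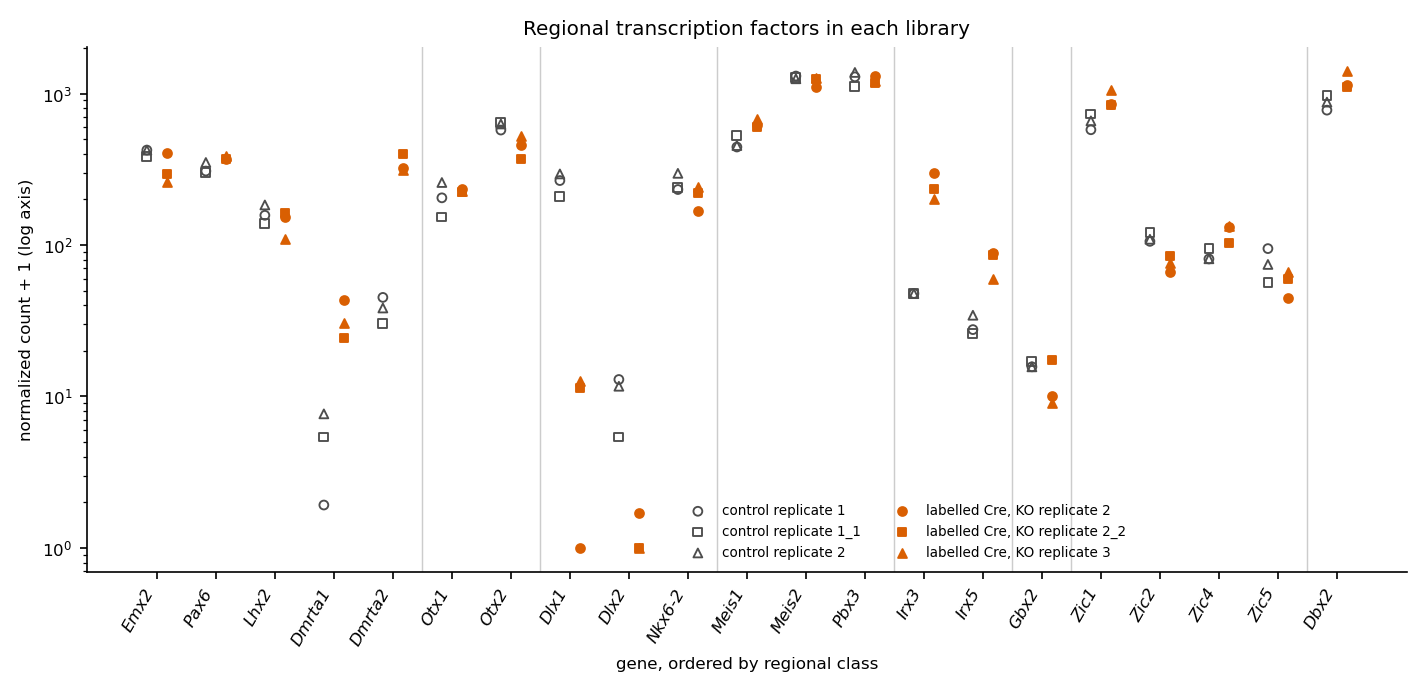
Normalized count plus 1 (log axis) of the 20 tested factors and *Dlx2* in each of the 6 libraries, ordered by regional class, with open grey symbols for control and filled orange symbols for the Cre-labelled libraries. The symbols separate most clearly at *Dmrta1*, *Dmrta2*, *Irx3* and *Irx5*, higher after Cre, and at *Dlx1*, where KO replicate 2 has 0 reads.

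Levels of different genes can be compared only per length, here as the normalized count per kilobase of exon. On that scale *Dbx2* stood highest in control, at 253 ± 28.3 (SD, n = 3), followed by *Pbx3* at 197 ± 21.0 and *Otx2* at 181 ± 11.3, and the spreads of the latter pair overlapped. The level of *Dbx2*, a factor known from the neural tube behind the telencephalon, was at percentile 81.5 of the 12913 tested genes with an exon length. *Emx2* (152 ± 8.60) and *Nkx6-2* (134 ± 18.5) came next, with overlapping spreads. *Dlx1* held rank 10 in control (47.3 ± 8.09) and rank 21 in the Cre-labelled libraries (1.36 ± 1.18). *Dmrta2* moved from rank 16 (12.6 ± 2.54) to rank 6 (118 ± 15.8), beside *Emx2* at 119 ± 28.8, and the spreads of the pair overlapped there. *Irx3* moved from rank 13 (19.9 ± 0.0316) to rank 8 (104 ± 21.0). The ranks depend on the length used. With the longest coding transcript in place of all annotated exons, *Pbx3* stood at rank 1 and *Dbx2* at rank 4 of the 20 tested factors in control. On that length *Dmrta2* moved from rank 17 to 8, *Irx3* from 15 to 10 and *Dlx1* from 11 to 20, so these directions did not depend on it.

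**Figure D2:**
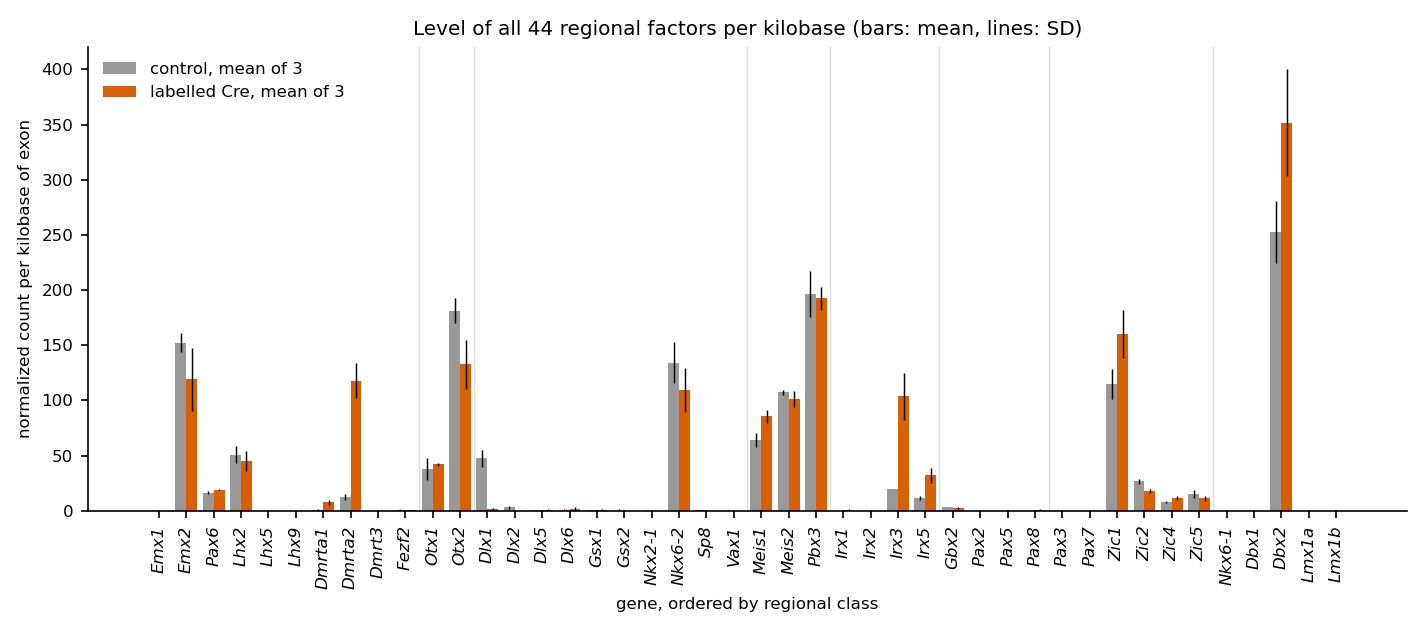
Level of all 44 factors as normalized count per kilobase of exon, with bars for the mean of 3 libraries and lines for the SD, grey for control and orange for the Cre-labelled libraries. On this length *Dbx2* has the tallest bars in both groups, and *Dmrta2* and *Irx3* climb from about the level of *Pax6* to that of *Emx2*.

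Of the 10 pallial factors, those of the dorsal telencephalon, 2 rose, 3 were tested without passing and 5 were too low. The factors that rose are both of the Dmrt family, whose DNA-binding DM domain is shared with sex-determination genes and which take part in the growth of the dorsal and medial cortex. Their sequences before a RefSeq transcription start are shown because they are the pallial genes that moved. They come from RefSeq on GRCm38.p6, on the plus strand, at chr4:109977775-109978024 for *Dmrta2* and chr4:89687948-89688197 for *Dmrta1*. The annotated span of *Dmrta2* starts at chr4:109977989, so its window ends inside the gene. Capitals mark GCGGGA, the core of the site bound by E2F factors, read on the opposite strand as TCCCGC.
Dmrta2: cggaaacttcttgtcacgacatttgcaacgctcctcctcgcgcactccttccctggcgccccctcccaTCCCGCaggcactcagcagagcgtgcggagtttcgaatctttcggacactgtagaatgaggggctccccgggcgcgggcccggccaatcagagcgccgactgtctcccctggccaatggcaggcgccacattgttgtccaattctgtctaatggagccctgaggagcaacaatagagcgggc
Dmrta1: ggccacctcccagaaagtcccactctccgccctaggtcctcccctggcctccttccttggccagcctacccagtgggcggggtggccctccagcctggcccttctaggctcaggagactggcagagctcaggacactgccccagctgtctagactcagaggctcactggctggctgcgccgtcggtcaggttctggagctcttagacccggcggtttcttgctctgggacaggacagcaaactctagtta

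*Dmrta2* had 44.05, 29.3 and 37.3 normalized counts in the control libraries (replicates 1, 1_1 and 2), and it had 321, 397 and 313 after Cre (KO replicates 2, 2_2 and 3). Each Cre-labelled library was far above each control library. The means were 36.9 ± 7.41 and 344 ± 46.1 (SD, n = 3), a 9.32-fold ratio. Its log2 fold change of 3.20 (SE 0.21, 95% interval 2.74 to 3.66, limma adjusted p = 7.5e-06) was the number 18 increase of the 14840 genes tested. The increase in *Dmrta2* passed under all 16 alternative settings, with log2 fold changes of 3.04 to 3.33.

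*Dmrta1* was scarce in control, with 0.918, 4.39 and 6.67 normalized counts (1, 3 and 5 reads), and reached 42.2, 23.2 and 29.5 in the Cre-labelled libraries (61, 27 and 33 reads). The groups did not overlap. The means of *Dmrta1* were 3.99 ± 2.90 and 31.7 ± 9.68 (SD, n = 3), a 7.94-fold ratio, with a log2 fold change of 2.89 (SE 0.57, 95% interval 1.64 to 4.13, limma adjusted p = 0.00954). It reached the minimum for testing only through the Cre-labelled libraries. *Dmrta1* and *Dmrta2* both lie on chromosome 4, 20283 kb apart, while *Dmrt3*, the remaining Dmrt factor of the list, had 0 reads in every library.

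The 3 other tested pallial factors did not pass. *Emx2*, a homeodomain factor needed for the caudal and medial cortex, had 422, 382 and 421 normalized counts in control and 407, 293 and 259 in the Cre-labelled libraries. KO replicate 2 lay within the control range, and KO replicates 2_2 and 3 lay under it. The log2 fold change of *Emx2* was -0.38 (SE 0.17, 95% interval -0.76 to 0.00, limma adjusted p = 0.198), and without KO replicate 2 it was -0.57 with an adjusted p of 0.0199. *Pax6*, a paired-box factor that specifies dorsal progenitors, had 307, 300 and 349 normalized counts in control and 369, 369 and 388 in the Cre-labelled libraries. Its groups did not overlap, yet the difference of 0.24 (SE 0.13, 95% interval -0.06 to 0.53, limma adjusted p = 0.295) did not pass. *Lhx2*, a LIM homeodomain factor that selects cortical identity, had means of 159 ± 22.7 and 141 ± 27.8 (SD, n = 3), with overlapping groups and a log2 fold change of -0.18 (limma adjusted p = 0.623).

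The label of cortex was checked against these genes. *Emx2*, *Pax6* and *Lhx2* were present in every library. *Emx1*, which in the embryo marks the pallium alone, had 1 read in control replicate 1 and 0 in the other libraries. Other dorsal factors were also near 0, with at most 4 reads of *Lhx9*, 2 of *Fezf2* and 2 of *Lhx5* in any library. *Tbr1*, a marker of newborn cortical neurons, had at most 1 read in a library.

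*Otx1* and *Otx2*, homeodomain factors of the forebrain and midbrain, were both tested and neither passed with limma, edgeR or DESeq2. At an unadjusted p under 0.05, 1 of them was lower. *Otx2* had 573, 647 and 628 normalized counts in control and 459, 371 and 522 in the Cre-labelled libraries, and every Cre-labelled library was below every control library. Its log2 fold change was -0.46 (SE 0.15, 95% interval -0.79 to -0.14, limma adjusted p = 0.0739). Without KO replicate 3 the value of *Otx2* was -0.57 with an adjusted p of 0.0315, and it passed under 1 of 16 alternatives. *Otx1* had 204, 152 and 257 normalized counts in control and 234, 222 and 226 in the Cre-labelled libraries, which all lay inside the control range. The log2 fold change of *Otx1* was 0.18 (SE 0.19, 95% interval -0.24 to 0.61, limma adjusted p = 0.603), and it was -0.01 without control replicate 1_1.

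Of the 10 subpallial factors, those of the ventral telencephalon, 1 fell, 1 was tested without passing, and 8 were too low. *Dlx1*, a distal-less homeodomain factor of the subpallium and of interneurons, is shown with its 250 bases before a RefSeq start on GRCm38.p6, at chr2:71529195-71529444 on the plus strand, because it was the only 1 of the 20 tested factors that fell. The annotated span of *Dlx1* starts at chr2:71528113, so this window lies inside the gene. Capitals mark AGGTCA, the core of nuclear receptor sites, read on the opposite strand as TGACCT.
Dlx1: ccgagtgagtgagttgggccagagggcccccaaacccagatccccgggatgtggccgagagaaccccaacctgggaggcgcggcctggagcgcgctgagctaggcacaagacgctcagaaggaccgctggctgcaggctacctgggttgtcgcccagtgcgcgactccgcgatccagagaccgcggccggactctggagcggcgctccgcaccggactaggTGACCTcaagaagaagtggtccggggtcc

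*Dlx1* had 265, 208 and 293 normalized counts in the control libraries, against 0, 10.3 and 11.6 after Cre (KO replicates 2, 2_2 and 3). All control libraries were high, and KO replicate 2 held 0 reads where the other Cre-labelled libraries held 12 and 13. The means were 255 ± 43.7 and 7.32 ± 6.38 (SD, n = 3), so control was 34.9-fold above the Cre-labelled libraries. *Dlx1* reached the minimum for testing only through the control libraries. The log2 fold change of *Dlx1* was -5.60 (SE 0.76, 95% interval -7.28 to -3.92, limma adjusted p = 0.00133), the number 7 decrease of the 14840 genes tested. It passed under all 16 alternatives, with values from -6.24 to -4.41. The antisense gene *Dlx1as* overlaps *Dlx1*, and the strand setting of the counts is not given in the sources used here. Its normalized counts were 20.2 ± 8.71 and 25.2 ± 4.71 (SD, n = 3), with a log2 fold change of 0.39 (limma adjusted p = 0.601). The mean of *Dlx1as* was thus higher after Cre, not lower, by less than the spread between libraries.

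*Dlx2*, the partner of *Dlx1* in the subpallium, lies 9.43 kb away and was too low for the test. It had 13, 3 and 8 reads in control and 1, 0 and 0 in the Cre-labelled libraries, which is 11.9, 4.39 and 10.7 against 0.693, 0 and 0 normalized counts. Control was above the Cre-labelled libraries in every pair, with a ratio of 35.4 (exact 95% counting interval 5.77 to 1456, counting error only). Without the filter on low genes *Dlx2* had a limma log2 fold change of -2.97 with an adjusted p of 0.0110. The other linked pair, *Dlx5* and *Dlx6*, was near 0 in both groups, with at most 2 reads of *Dlx5* in a library and 9 of *Dlx6*, the latter in KO replicate 2_2.

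*Nkx6-2*, a homeodomain factor of ventral progenitors, made up most of what remained of this class. Its normalized counts were 231, 240 and 296 in control and 166, 220 and 241 in the Cre-labelled libraries, and the groups overlapped (log2 fold change -0.30, SE 0.18, 95% interval -0.70 to 0.10, limma adjusted p = 0.335). *Nkx6-2* shares bases with *Inpp5a*, whose normalized counts were 256 and 206 on average and whose log2 fold change was -0.32 (limma adjusted p = 0.292), so reads could be split between these genes. *Gsx2*, which starts the program of the lateral ganglionic eminence, had 1, 2 and 1 reads in control and 0 in every Cre-labelled library. *Nkx2-1*, which defines the medial ganglionic eminence, had 1 read, in control replicate 2. *Gsx1* had at most 3 reads, *Sp8* at most 4 and *Vax1* at most 1 in any library. Summed per kilobase, the class stood at 188 ± 25.9 in control and 113 ± 21.9 in the Cre-labelled libraries (SD, n = 3).

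The Meis and Pbx proteins are TALE homeodomain factors that bind DNA together with Hox and other factors and are used in many regions. None of the 3 passed with limma, edgeR or DESeq2, and 1 was higher at an unadjusted p under 0.05. *Meis1* had 442, 525 and 452 normalized counts in control and 622, 597 and 679 in the Cre-labelled libraries, without overlap (log2 fold change 0.42, SE 0.13, limma adjusted p = 0.0637). *Meis2* was nearly level, at 1274 ± 27.2 and 1203 ± 85.7 (SD, n = 3), with a log2 fold change of -0.08 (SE 0.11, 95% interval -0.33 to 0.16, limma adjusted p = 0.695). *Pbx3* had 1259 ± 135 and 1231 ± 65.4 normalized counts (SD, n = 3) and a log2 fold change of -0.03 (95% interval -0.30 to 0.24, limma adjusted p = 0.915), whose sign turned without control replicate 2 (0.04) or KO replicate 2_2 (0.00).

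The Iroquois genes encode homeodomain factors that are arranged in clusters. Both of the tested members rose, and the other 2 were at or near 0. For *Irx3* the 250 bases before the RefSeq start on GRCm38.p6 lie at chr8:91801655-91801904 on the minus strand. They are shown because *Irx3* is an Iroquois gene that rose. None of the motifs searched was found in them, so no letter is in capitals.
Irx3: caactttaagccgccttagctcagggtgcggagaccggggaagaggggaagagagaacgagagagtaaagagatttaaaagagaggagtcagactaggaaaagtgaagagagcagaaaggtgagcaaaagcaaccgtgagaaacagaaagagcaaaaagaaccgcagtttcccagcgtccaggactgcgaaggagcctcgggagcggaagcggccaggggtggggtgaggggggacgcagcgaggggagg

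*Irx3* had 46.8, 46.8 and 46.7 normalized counts in control (51, 32 and 35 reads) and 297, 232 and 201 in the Cre-labelled libraries. The control libraries were almost equal, and every Cre-labelled library was more than 4 times as high. The means of *Irx3* were 46.8 ± 0.0741 and 243 ± 49.3 (SD, n = 3), a 5.20-fold ratio, with a log2 fold change of 2.33 (SE 0.20, 95% interval 1.89 to 2.78, limma adjusted p = 6.3e-05). This was the number 46 increase of the 14840 genes tested.

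*Irx5*, which lies 556 kb from *Irx3* on chromosome 8, had 26.6, 24.9 and 33.3 normalized counts in control and 88.0, 85.2 and 58.2 in the Cre-labelled libraries. The groups did not overlap, and KO replicate 3 was the lowest after Cre for both genes. The means of *Irx5* were 28.3 ± 4.47 and 77.1 ± 16.4 (SD, n = 3), a 2.73-fold ratio, with a log2 fold change of 1.40 (SE 0.27, 95% interval 0.81 to 2.00, limma adjusted p = 0.00855). Both genes passed under all 16 alternatives, *Irx5* with an adjusted p of at most 0.0462. *Irx1* had 4 reads in KO replicate 2 and 0 elsewhere, and *Irx2* had 0 in all libraries. Summed per kilobase, the family stood at 31.7 ± 1.83 in control and 136 ± 27.5 in the Cre-labelled libraries (SD, n = 3).

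*Gbx2*, a homeodomain factor that sets the hindbrain side of the boundary with the midbrain, was the only tested gene of 4. It had 14.7, 16.1 and 14.7 normalized counts in control and 9.003, 16.4 and 8.06 in the Cre-labelled libraries, so the groups overlapped (log2 fold change -0.47, SE 0.43, 95% interval -1.41 to 0.46, limma adjusted p = 0.535). *Pax2*, which marks the boundary from early stages, had 0 reads in every library. *Pax5* had 1 read, in KO replicate 2. *Pax8* had 0, 2 and 0 reads in control and 2, 1 and 9 in the Cre-labelled libraries, with a ratio of 4.07 and an exact 95% counting interval of 0.905 to 37.4.

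*Pax3* and *Pax7*, the paired-box factors of the dorsal tube and neural crest, were at or near 0, with 0 reads of *Pax3* and 1, 1 and 0 reads of *Pax7* in control and 0 after Cre. The 4 Zic zinc-finger factors, which act in dorsal tube and forebrain midline, were tested and none passed in the main limma fit. There 2 were higher and 1 lower at an unadjusted p under 0.05. *Zic1* had 575, 731 and 659 normalized counts in control and 850, 833 and 1053 in the Cre-labelled libraries, without overlap (log2 fold change 0.48, SE 0.14, 95% interval 0.16 to 0.79, limma adjusted p = 0.0562). It passed under 4 of 16 alternatives, among them DESeq2 on recovered reads (log2 fold change 0.48, adjusted p = 0.0424). Another was limma without KO replicate 2, where the log2 fold change was 0.52 with an adjusted p of 0.0297. *Zic4* overlaps *Zic1* by 138 bases, and had 84.5 ± 7.90 and 122 ± 17.4 normalized counts (SD, n = 3; log2 fold change 0.51, limma adjusted p = 0.129).

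The other Zic pair had lower values after Cre. *Zic2* had 105, 120 and 108 normalized counts in control and 65.1, 83.5 and 75.2 in the Cre-labelled libraries, all of them below control (log2 fold change -0.57, SE 0.20, 95% interval -1.004 to -0.14, limma adjusted p = 0.0953). *Zic5*, which lies 9.73 kb from *Zic2* on chromosome 14, had 74.2 ± 19.0 and 55.8 ± 11.1 normalized counts (SD, n = 3), with overlapping groups (log2 fold change -0.39, limma adjusted p = 0.394). Within each linked pair the signs were thus the same, and between the pairs they differed, but no single Zic gene passed in the main limma fit.

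Of 5 genes of the ventral tube and the plates, 4 had no read at all, among them *Nkx6-1*, which marks ventral progenitors, and *Lmx1a*, which marks the roof plate and midbrain floor plate. *Dbx2*, a homeodomain factor of the middle of the tube, had 775, 971 and 876 normalized counts in control and 1135, 1106 and 1410 in the Cre-labelled libraries. The groups did not overlap. The means were 874 ± 97.9 and 1217 ± 168 (SD, n = 3), with a log2 fold change of 0.47 (SE 0.14, 95% interval 0.17 to 0.78, limma adjusted p = 0.0527). *Dbx2* was close to the threshold and passed under 6 of 16 alternatives, including edgeR (adjusted p = 0.0488) and DESeq2 (adjusted p = 0.0371) on recovered reads, and without KO replicate 2 (log2 fold change 0.52, adjusted p = 0.0263).

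**Figure D3:**
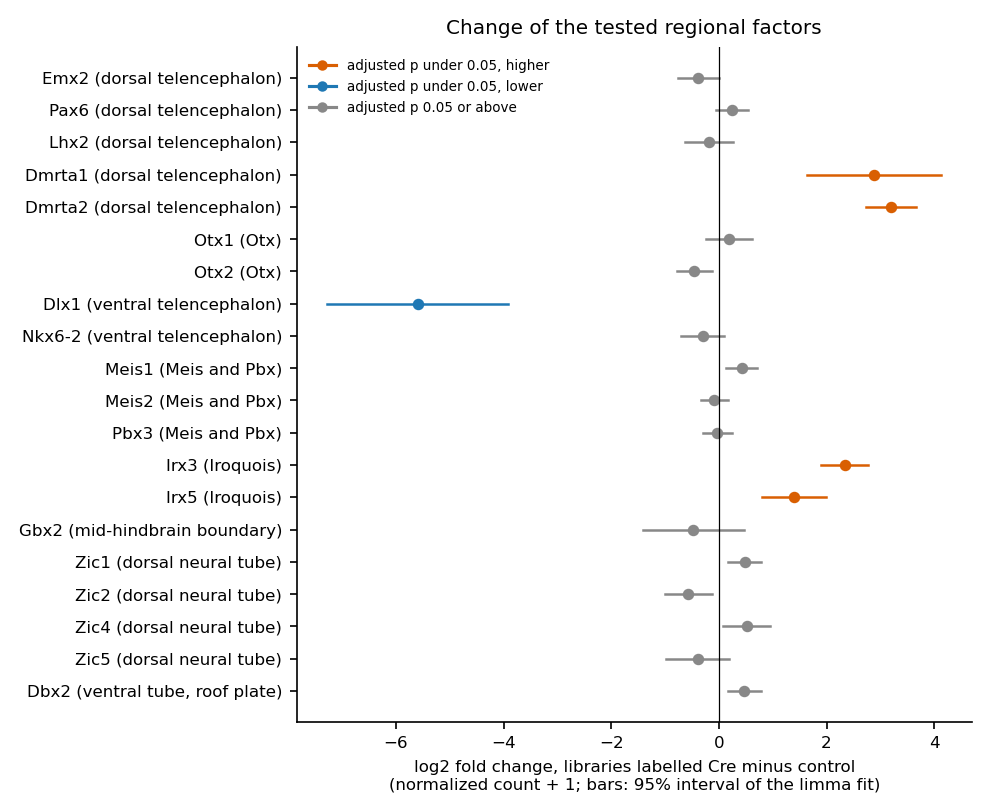
Log2 fold change of the 20 tested factors, Cre-labelled libraries minus control, on normalized count plus 1, with points for the limma estimate and bars for its 95% interval. The 4 orange genes passed as higher, *Dlx1* in blue passed as lower at -5.60, and the 15 grey genes lie between -0.57 and 0.51.

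Across the 20 tested factors, the coefficient of variation between libraries of a group had a median of 11.0% in control and 15.6% in the Cre-labelled libraries. The widest were *Dmrta1* in control, at 72.5% (1, 3 and 5 reads), and *Dlx1* after Cre, at 87.1% (0, 12 and 13 reads).

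The genes around the 5 factors that passed, and around *Dlx2*, were examined after the values of the factors were known. Within 500 kb of these 6 genes the table held 48 other genes, of which 21 were tested and 2 rose, 9.52% beside 9.96% among all genes tested. *Elavl4*, which encodes a neuronal RNA-binding protein and lies 220 kb from *Dmrta2*, had 96.6 ± 20.8 and 479 ± 32.1 normalized counts (SD, n = 3), with a log2 fold change of 2.32 (SE 0.18, limma adjusted p = 3.7e-05). *Crnde*, a long noncoding RNA 1.68 kb from *Irx5*, had 23.5 ± 6.41 and 52.1 ± 10.2 (SD, n = 3), with a log2 fold change of 1.13 (SE 0.31, limma adjusted p = 0.0418). Closer neighbours of the other factors did not pass. *Faf1*, 14.0 kb from *Dmrta2*, had a log2 fold change of -0.21 (limma adjusted p = 0.521), *Fto*, 130 kb from *Irx3*, of 0.11 (limma adjusted p = 0.692), and *Metap1d*, 2.92 kb from *Dlx1*, of 0.06 (limma adjusted p = 0.871). *Dmrta2os*, which overlaps *Dmrta2*, was not tested and had 0, 2 and 1 reads in control and 5, 13 and 1 in the Cre-labelled libraries.

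**Figure D4:**
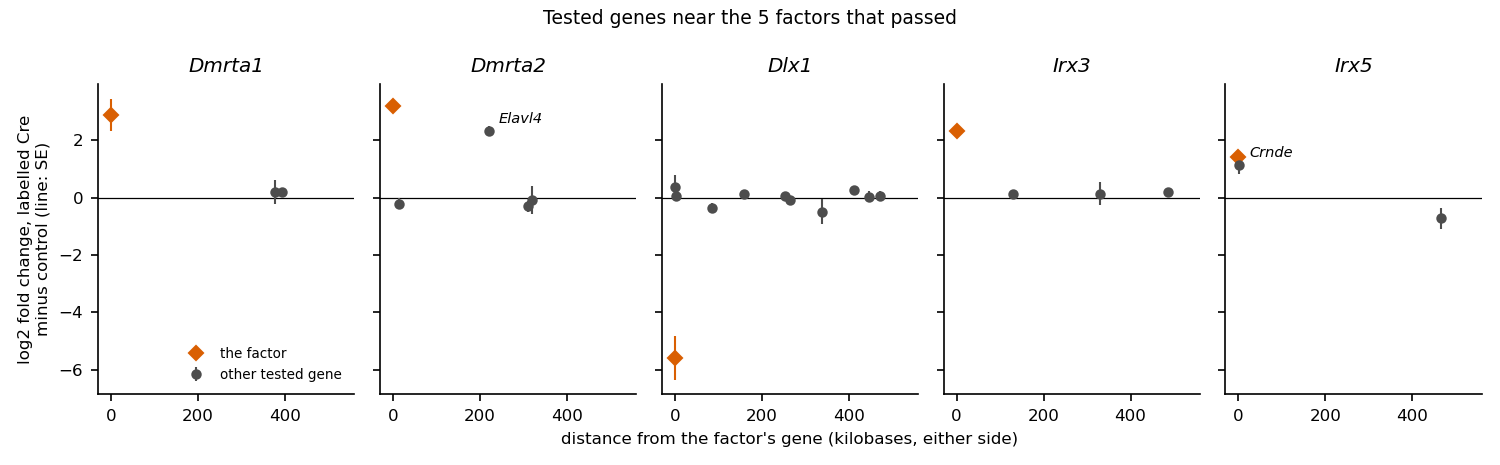
Log2 fold change, Cre-labelled libraries minus control, of each of the 5 factors that passed (orange diamonds) and of the other tested genes within 500 kb (grey points), against distance in kilobases on either side, with lines for the standard error. Most neighbours lie near 0, and the labelled genes are those that passed.

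RefSeq promoter windows were found for 35 of the 44 factors, as 44 windows in all, and *Irx5* had none. In the 250 bases before the start, the median GC content was 60.8% in the windows of the factors and 52.4% in 32851 windows of all genes, and the median number of CpG dinucleotides was 14 and 6. Among the sequences printed above, *Dlx1* had 68% GC and 22 CpG, *Dmrta2* 61.6% and 19, *Irx3* 56% and 13, and *Dmrta1* 63.6% and 7. Each of 3 motifs was searched on both strands. The homeodomain core TAATTA was in 3 of the 44 windows (6.82%) and in 4.84% of all windows. AGGTCA was in 3 (6.82%) and in 14.0% of all, and GCGGGA was in 12 (27.3%) and in 16.9% of all. Of the 4 printed windows, the nuclear receptor core was in that of *Dlx1* and the E2F core in that of *Dmrta2*, and a letter match describes the sequence and does not show a bound site.

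Other genes of regional identity were read from the same fit, as a list of 56 genes together with the 39 Hox genes. Of the 56, 22 were tested, 6 rose and 4 fell, while 34 were too low. These calls are 45.5% of the 22, beside 9.96% of all genes tested, in a list chosen with earlier results of these data known. The 4 that fell, *Six3*, *Nr2f2*, *En2* and *Cnpy1*, reached the minimum for testing only through the control libraries. In the telencephalon list of 11 genes (7 tested), 2 rose and 2 fell. *Six3*, a homeodomain factor of the most anterior forebrain, had 1630, 1502 and 1854 normalized counts in control and 4.16, 13.8 and 1.79 in the Cre-labelled libraries, and its log2 fold change was -8.12 (SE 0.46, limma adjusted p = 2.4e-06). The COUP-TF genes, nuclear receptors of the caudal and ventral telencephalon, went opposite ways. *Nr2f2* fell from 110 ± 8.66 to 6.93 ± 2.66 normalized counts (log2 fold change -3.87, limma adjusted p = 6.9e-05), and *Nr2f1* rose from 2088 ± 187 to 3287 ± 196 (0.66, limma adjusted p = 0.00569). *Etv1*, an ETS factor of deep cortical layers, rose by 0.48 on the log2 scale (limma adjusted p = 0.0352), but lost its call without control replicate 1 (0.41, adjusted p = 0.178), 1_1 (0.48, 0.105) or 2 (0.57, 0.0567), or without KO replicate 2_2 (0.43, 0.136).

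In the ventral telencephalon list of 11 genes (7 tested), 2 rose and none fell. *Foxp1*, a forkhead factor of striatal neurons, rose from 461 ± 16.4 to 745 ± 14.0 normalized counts (log2 fold change 0.69, limma adjusted p = 0.00444), and *Sox6*, a factor of interneurons and dorsal progenitors, rose from 555 ± 54.1 to 1190 ± 78.8 (1.10, limma adjusted p = 0.000447). Of the 8 diencephalic genes 2 were tested, and 0 passed with limma, edgeR or DESeq2 or at an unadjusted p under 0.05.

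In the midbrain and hindbrain list of 16 genes (5 tested), 1 rose and 2 fell. *En2*, the engrailed homeodomain factor of midbrain and cerebellum, had 348, 320 and 299 normalized counts in control and 0.693, 0 and 0 in the Cre-labelled libraries, with a total of 1 read after Cre. Its log2 fold change was -8.08 (SE 0.37, limma adjusted p = 7.4e-07). *Cnpy1*, a regulator of FGF signalling at the same boundary, fell from 606 ± 35.5 to 0.991 ± 1.04 normalized counts (log2 fold change -8.40, limma adjusted p = 7.4e-07). *En1* was below the limit for testing, with 3, 1 and 3 reads in control and 0 after Cre.

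Among 10 patterning signals 1 was tested. *Bmp7*, a dorsal BMP ligand, rose by 0.61 on the log2 scale (limma adjusted p = 0.0491), and lost its call without any 1 of the 3 control libraries (0.57 to 0.66, adjusted p = 0.105 to 0.184) or without KO replicate 2_2 (0.57, adjusted p = 0.164) or 3 (0.45, adjusted p = 0.108). *Fgf8* and *Wnt1*, the signals of the boundary of midbrain and hindbrain, had 0 reads in every library. Of 39 Hox genes, which pattern hindbrain and spinal cord, 28 had no read in any library.

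*Neurog2* and *Eomes*, which act in the neurogenic lineage of the cortex, were too low for the test and are named after their values were seen. *Neurog2* had 0 reads in each control library and 4.85, 19.8 and 19.7 normalized counts in the Cre-labelled libraries, at least 3.98-fold higher when control is set to 3 reads per library. *Eomes* had 1 read in control and 9.003, 10.3 and 12.5 normalized counts in the Cre-labelled libraries, with a ratio of 26.4 (exact 95% counting interval 4.47 to 1071).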

How the data were processed

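RNA-seq libraries were grouped by their labels, 3 control and 3 labelled Cre. The deposited value per gene and library is a signal, the normalized count, which the authors made by dividing reads by a size factor with DESeq2. The paper names TopHat with mm9 and mm10, and the submitters' processing notes name STAR 2.7 and mm10. The read counter, its use of strand and the annotation are not given in the sources used here. Of the deposited values 100% were whole multiples of 1 read, to within 9.9e-05, so reads were recovered (7510615 to 14828100 per library). The authors' own comparison in the table (mean, log2 fold change with its error, test statistic, p-value, adjusted p-value) was not used. Of 53379 genes, 873 have no name and 1 was left out for a missing value.

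Differences were tested with limma 3.58.1 (R 4.3.3, lmFit and eBayes with trend) on log2(normalized count + 1) for 14840 genes with a mean of at least 10, with Benjamini-Hochberg adjustment over all of them, a threshold of 0.05 and 95% intervals from the fit. Such fold changes understate the change of low genes. An exact permutation test of 3 against 3 cannot go below p = 0.1 and was not used. Alternatives were edgeR 4.0.16 and DESeq2 1.42.0 on recovered reads, pseudocounts of 0.5 and 5, no filter, a mean of at least 50, TMM and total scaling, averaging control replicates 1 and 1_1 or KO replicates 2 and 2_2, and leaving out each library. edgeR called 1483 genes and DESeq2 1755. The script was tested on simulated counts. Exact intervals of read ratios cover counting error only, and a gene at 0 was set to 3 reads per library for a bound.

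The 44 genes, their classes, the other lists and the tests were chosen with earlier results of these data known. All 44 are accounted for. Full statistics are given for those past the threshold and for set defining factors, and other regional genes are named where they passed or define a region. Genes outside this rule are said to be named after their values were seen. The same holds for *Nes*, *Vim*, *Slc1a3*, *Fabp7*, *Inpp5a*, *Tbr1*, *En1*, *Fgf8* and *Wnt1*. Exon lengths come from GENCODE M1, as the union of all exons,. Positions and promoter windows (250 bases before and 50 after each start, the former used) come from RefSeq, GRCm38.p6. Tables were made with Python 3.11.15 and figures with matplotlib 3.10.9. Results of some genes of the other lists are not reported here.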

Additional observations from a re-analysis of the deposited data

How the results depend on the processing

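The calls of *Dmrta2*, *Dmrta1*, *Irx3*, *Irx5* and *Dlx1* were kept under every one of the 16 alternatives that tested them, and of the 15 other tested factors 4 (*Emx2*, *Otx2*, *Zic1* and *Dbx2*) passed under at least 1. Without the filter on low genes 2 of the factors were lower rather than 1, both of them subpallial, and 4 telencephalic genes of the other list were higher rather than 2. With a mean of at least 50, 1 pallial factor rather than 2 and 0 Hox genes rather than 1 were called higher. The dorsal neural tube had 1 higher call with DESeq2, total scaling or KO replicates 2 and 2_2 averaged, and the ventral tube had 1 with these and with edgeR or TMM, against 0 in the report. Averaging replicates 1 and 1_1 of control, or 2 and 2_2 of KO, left 1 higher call in the telencephalic list, and the former left 0 patterning signals rather than 1. DESeq2 gave 2 higher calls in the midbrain and hindbrain list rather than 1, and a log2 fold change of 0.45 for *Tbl1xr1* with an adjusted p of 0.0398.

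Leaving out 1 library gave 1 to 2 lower calls among the factors, 0 to 1 lower in the pallial and the Otx class, and 0 to 1 higher in the dorsal and the ventral tube. In the other lists it gave 1 to 2 higher calls for the telencephalon, 1 to 2 for midbrain and hindbrain and 0 to 1 for patterning signals. *Tbl1xr1* ranged from 0.36 to 0.55, the highest without KO replicate 3. *Otx1* ranged from -0.011 without control replicate 1_1 to 0.37 without control replicate 2, and *Pbx3* from -0.11 without control replicate 1_1 to 0.040 without control replicate 2, with 0.0020 without KO replicate 2_2. Over all genes, calls ran from 308 higher and 250 lower without control replicate 1 to 1188 and 1208 without KO replicate 2, against 704 and 774 with all libraries. Averaging control replicates 1 and 1_1 left 351 and 309. The cause was not tested. No paired analysis was possible because the groups share the replicate number 2 alone. The deepest library has 14828100 reads, so the 24 untested factors are known only as low.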
